A study of Mus musculus with 8 samples.

Results

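Transcripts of the neurofilament subunits and of axon growth and injury genes were compared between *SOD1* G93A mice with and without *Ager* in microglia. The group holds 10 genes of the 55291 in the count table, chosen by symbol from their known roles: *Nefl*, *Nefm*, *Nefh*, *Ina*, *Gap43*, *Stmn2*, *Stmn4*, *Sprr1a*, *Sox11* and *Ecel1*. All 10 were found in the table, and all 10 were among the 19470 genes that passed the filter on low counts. RNA was sequenced in bulk from the lumbar spinal cord of 8 male mice on a C57BL/6J background, all with the *SOD1* G93A transgene and all *Cx3cr1* Cre/+. Of these, E5231, E1776, E5568 and E5248 were *Ager* fl/fl and are called *Ager*-deleted, whereas E6578, E5642, E6732 and E5386 were *Ager* +/+ and are called controls, and values per mouse are given in this order. *Ager* encodes RAGE, a receptor for advanced glycation end products, and the comparison asks what its loss in microglia did to the cord of mice that overexpress a mutant human SOD1. Every mouse of both groups carried the *SOD1* transgene, had lost 1 copy of *Cx3cr1* to the inducible Cre, and was given tamoxifen, so neither a healthy cord nor an untreated one is part of the comparison. The Cre acts in *Cx3cr1*-expressing cells, which in the cord are microglia and other macrophages, and neurons of the *Ager*-deleted mice were not targeted. The labels place tamoxifen at 12 weeks of age and the death of all mice at 120 days, whereas the text of the study places tissue collection at end-stage, and the stage of each single mouse was not used here.

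Neurofilaments are the intermediate filaments of axons. The light chain *Nefl* forms the core, the medium and heavy chains *Nefm* and *Nefh* carry long tails that project from the filament, and alpha-internexin (*Ina*) is a further subunit of central neurons. Large motor axons are rich in the light, medium and heavy chains, and neurofilament protein that leaks from dying motor axons into blood and cerebrospinal fluid is a widely used marker of ALS. *Gap43*, *Stmn2* and *Stmn4* encode proteins of growing axon tips, and *Sprr1a*, *Sox11* and *Ecel1* are switched on in motor and sensory neurons whose axons have been cut or crushed.

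What sets the subunits apart is the tail, in which the triplet lysine-serine-proline recurs and is phosphorylated. In the coding sequence of GENCODE on GRCm38, in-frame triplets of this kind numbered 51 among the 1090 codons of *Nefh* and 4 among the 848 codons of *Nefm*, and 0 among the 543 codons of *Nefl* and the 501 of *Ina*. The 150 coding bases with most of them are shown for both tailed subunits, counted from the first base of the start codon, with each triplet in capitals. The window of *Nefh* runs from base 1549 to 1698 and holds 8 triplets, and that of *Nefm* from base 1372 to 1521 and holds 2.
Nefh: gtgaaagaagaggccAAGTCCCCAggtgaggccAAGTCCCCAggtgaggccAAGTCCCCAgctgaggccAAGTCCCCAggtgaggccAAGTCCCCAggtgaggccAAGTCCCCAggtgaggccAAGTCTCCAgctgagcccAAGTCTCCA
Nefm: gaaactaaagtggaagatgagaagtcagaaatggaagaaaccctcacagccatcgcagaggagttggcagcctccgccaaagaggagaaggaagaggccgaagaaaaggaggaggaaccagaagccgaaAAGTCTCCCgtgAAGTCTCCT

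Each library held 31148047 to 40324897 counts on genes. *Ager* itself was lower in each of the 4 *Ager*-deleted mice (0.889 to 1.51 CPM, counts scaled to library size after TMM normalization in edgeR) than in each of the 4 controls (1.53 to 2.41 CPM). Its log2 fold change, given here and below as *Ager*-deleted over control, was -0.81 ± 0.22 (SE), which missed the threshold (exact test of edgeR, adjusted p = 0.252). All 17 pan-neuronal and all 16 motor neuron markers of the lists used were among the tested genes. Skeletal muscle markers summed to 1476 CPM in control E5386 and 2163 CPM in control E5642, against 152 to 175 CPM in the other 6 mice. Of 22 muscle genes tested, *Myh4*, *Ckm* and *Atp2a1* passed the adjusted threshold with log2 fold changes of -6.10, -5.97 and -6.39, and the fold changes of the 10 genes, the neurofilament shares and the main correlations were therefore also computed without these 2 mice. Schwann cell markers, which come with nerve roots, summed to between 258 CPM (E5386) and 1130 CPM (E5642).

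None of the 10 genes passed a test of difference in normalized level between the genotypes, and levels relative to pan-neuronal markers are given further below. In edgeR's exact test 0 of 10 had an adjusted p under 0.05, where 0.0719% of all 19470 tested genes did, and 0 of 10 had an unadjusted p under 0.05, where 4.26% of all tested genes did. The count was also 0 at both thresholds with edgeR's quasi-likelihood test, DESeq2 and limma-voom. No gene of the 10 had *Ager*-deleted and control mice in separate ranges, which 3.87% of all tested genes had. The median log2 fold change was 0.04 over the 10 genes, with 7 above and 3 below 0, beside 0.0069 over all tested genes. It was 0.0043 without the 2 muscle-rich controls, with 5 above and 5 below 0, beside 0.0053 over all tested genes. In that fit, which is quoted below for other genes too, 0.333% of all tested genes had an adjusted and 3.78% an unadjusted p under 0.05, and 0 of the 10 had either. The estimates ran from -0.14 for *Sox11* to 0.12 for *Nefh*, and the smallest unadjusted p of the exact test was 0.306, for *Nefh*.

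The precision of these comparisons limits what change could have gone unseen. For the 9 genes other than *Sprr1a*, standard errors lay between 0.083 and 0.13 on the log2 scale, and every 95% interval of the quasi-likelihood fit lay within 0.742-fold and 1.30-fold. Changes beyond these bounds in either direction are outside the intervals, whereas smaller ones may be present. *Sprr1a* was less tightly held, with an interval from 0.578-fold to 1.63-fold. Fewer neurons and less RNA per neuron cannot be told apart in bulk tissue, which holds for every level given here.

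**Figure D1:**
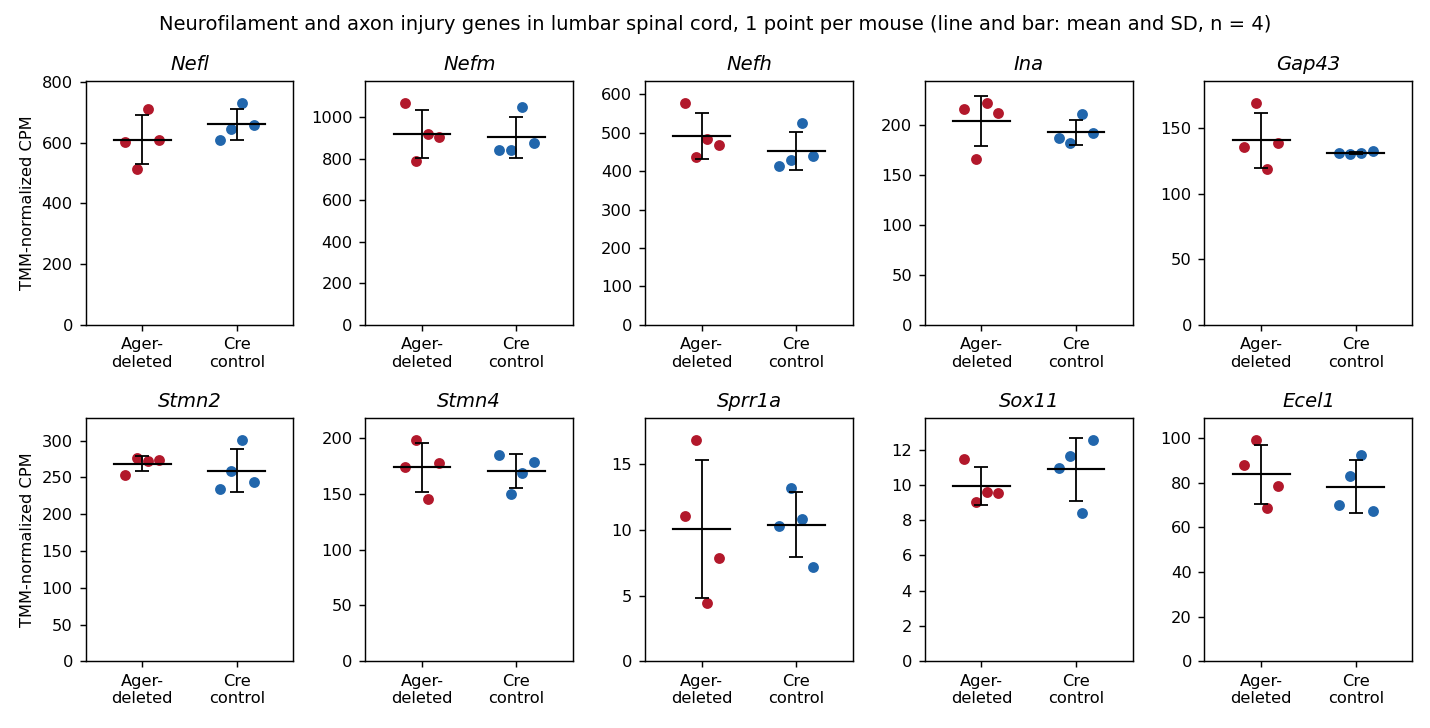
TMM-normalized CPM (y axis, linear from 0) of the 10 genes in 4 *Ager*-deleted mice (red) and 4 Cre-expressing controls (blue), 1 point per mouse, with the mean as a line and the SD as a bar. The 2 genotypes overlap in every panel, the controls for *Gap43* lie within 129.8 to 132 CPM, and *Sprr1a* has the widest spread, from 4.49 to 16.9 CPM.

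**Figure D2:**
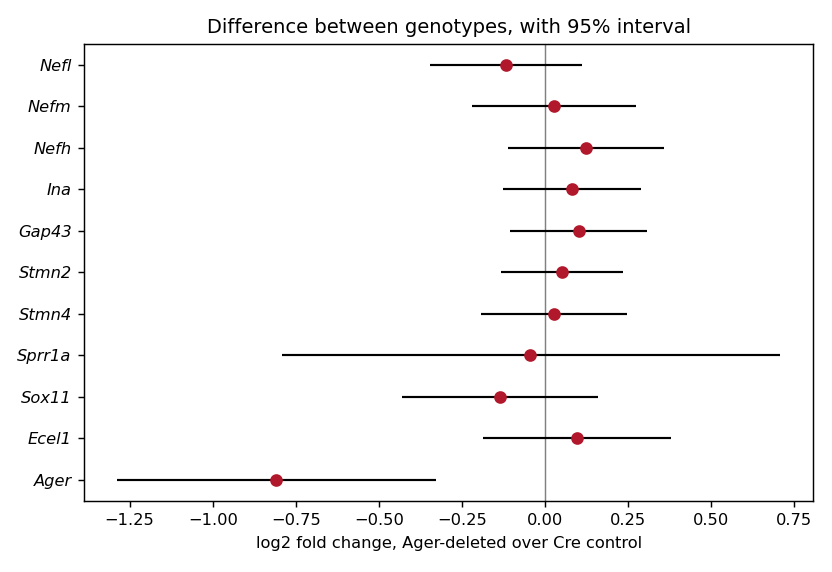
Log2 fold change (x axis, *Ager*-deleted over control, n = 4 per genotype) of the 10 genes and of *Ager*, as points from edgeR's exact test with 95% intervals from the quasi-likelihood fit as lines. The intervals of all 10 genes cross 0, that of *Sprr1a* is the widest, and that of *Ager* runs from -1.29 to -0.33.

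Among the neurofilament genes, *Nefl* (chr14:68083863-68089095, plus strand, GRCm38) stood at 514, 602, 611 and 711 CPM in E5231, E1776, E5568 and E5248. The controls E6578, E5642, E6732 and E5386 had 730.4, 646, 657 and 609.9 CPM. E5231 and E1776 lay below every control, while E5248 was higher than all controls but E6578. This gave a log2 fold change of -0.12 ± 0.10 (SE; 95% interval -0.35 to 0.11), or -0.19 without the 2 muscle-rich controls, and the exact two-sided permutation test over the 70 assignments of mice gave p = 0.343, where 0.0286 is the smallest possible.

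*Nefm*, the medium chain, is annotated on the opposite strand over a span that encloses *Nefl* (chr14:68082590-68124846). Its level was 788, 1067, 905 and 917 CPM without *Ager*, and 1050.4, 843, 878 and 840.4 CPM in the controls. Both the lowest and the highest level belonged to *Ager*-deleted mice, E5231 and E1776. On the log2 scale the genotypes differed by 0.026 ± 0.11 (SE), which turned to -0.074 without the 2 muscle-rich controls, which is also within its error. The annotated exons of *Nefl* and *Nefm* share 1108 bases, 32.8% of those of *Nefl* and 19.2% of those of *Nefm*. The study names a stranded mRNA library kit, but the strand setting of the counting is not given in the sources used here. How reads from the shared stretch were assigned is therefore uncertain.

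*Nefh* (chr11:4938754-4948064, minus strand), the heavy chain, gave 437, 577, 469 and 485 CPM in E5231, E1776, E5568 and E5248 and 524, 430.2, 439 and 413 CPM in the controls. E1776 was the only *Ager*-deleted mouse above all controls, and E5231 lay among them. The fold change was 0.12 ± 0.11 on the log2 scale (SE; 95% interval -0.11 to 0.36), and 0.025 without the 2 muscle-rich controls. *Ina* (chr19:47014698-47025327, plus strand) gave 166, 215, 212 and 221 CPM in the former and 210.3, 181, 191 and 186 CPM in the latter. Of the *Ager*-deleted mice 3 were above every control and E5231 was below every one, so that without E5231 the ranges of *Ina* did not overlap (212 to 221 against 181 to 210.3 CPM), as held for 7.68% of all tested genes. The fold change with all 8 mice was 0.083 ± 0.094 (SE) on the log2 scale, and 0.014 without the 2 muscle-rich controls. A stretch of 456 bases (14.1%) of the *Ina* exons also belongs to *Nt5c2* on the other strand.

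The makeup of the neurofilament transcripts was compared as shares, which do not depend on the scaling of libraries. Counts of each gene were divided by the length of its exons, and the 4 genes were set to 100% within each mouse. *Nefl* made up 33.9%, 31.1%, 34.7% and 37.7% in E5231, E1776, E5568 and E5248, and 36.4%, 38.2%, 37.7% and 37.1% in the controls E6578, E5642, E6732 and E5386. *Nefh* made up 24.4%, 25.2%, 22.6% and 21.7% in the former and 22.1%, 21.5%, 21.3% and 21.3% in the latter. Thus 3 of 4 *Ager*-deleted mice had less *Nefl* and more *Nefh* in the mix than any control, and E5248 sat within the control range for both.

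The mean share of *Nefl* was 34.3% ± 2.72 (SD, n = 4) against 37.3% ± 0.789, a difference of -3.01 percentage points (exact permutation test, p = 0.0857, adjusted p = 0.171 over the 4 subunits). For *Nefh* it was 23.5% ± 1.59 against 21.6% ± 0.386, a difference of 1.91 points (exact permutation test, p = 0.0571, adjusted p = 0.171). Neither passed the threshold. The shares of *Nefm* (30.3% ± 1.55 against 29.8% ± 0.627) and *Ina* (11.9% ± 0.545 against 11.3% ± 0.374) were closer, with exact permutation adjusted p of 0.6 and 0.229. Leaving out any 1 mouse kept the *Nefl* difference between -4.12 and -1.91 points and the *Nefh* difference between 1.33 and 2.49 points. Without the 2 muscle-rich controls they were -2.73 and 1.74 points (exact permutation p = 0.267 and 0.2). With all mice and shares of counts without length, they were -2.54 and 1.68 points (exact permutation p = 0.114 and 0.0571, adjusted p = 0.229 for both). With the longest coding transcript as length, they were -2.63 and 1.58 points (exact permutation p = 0.114 and 0.0571, adjusted p = 0.229 for both). Expressed as a ratio of raw counts, *Nefh* reads per *Nefl* read were 0.849, 0.959, 0.768 and 0.681 without *Ager* and between 0.666 and 0.718 in the controls.

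*Nefl* was also set against the neuronal RNA in each library, a comparison chosen after the values were seen. As a percentage of the summed CPM of the 17 pan-neuronal markers, *Nefl* amounted to 9.34%, 10.2%, 9.15% and 10.2% in E5231, E1776, E5568 and E5248. It amounted to 11.1%, 10.997%, 10.9% and 10.7% in the controls E6578, E5642, E6732 and E5386. The ranges did not overlap, with a mean of 9.73% ± 0.565 (SD, n = 4) against 10.9% ± 0.176, or 0.891-fold. The exact permutation test gave p = 0.0286, the smallest that 4 mice against 4 allow, for 1 of 10 genes so compared. Without the 2 muscle-rich controls the ranges were still separate, with exact permutation p = 0.133, where 0.0667 is the smallest possible. Separate ranges come more easily with fewer mice, and their share over all genes was not counted for this subset. The genotypes were separate on this scale in 2.99% of the 19463 tested genes with counts in every mouse. The other 9 genes overlapped between the genotypes on this scale, with exact permutation p of at least 0.429. With the mean log2 level of the 17 markers in place of their sum, *Nefl* stayed separate and its difference was -0.20 against -0.17 on the log2 scale. Of the 17 pan-neuronal markers 15 had a positive log2 fold change (median 0.098) and 0 an unadjusted p under 0.05 in the exact test, so the ratio draws on both the numerator and the denominator. With the 2 muscle-rich controls left out, 9 of 17 were positive, with a median of 0.010, beside 10372 of 20141 over all tested genes.

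**Figure D3:**
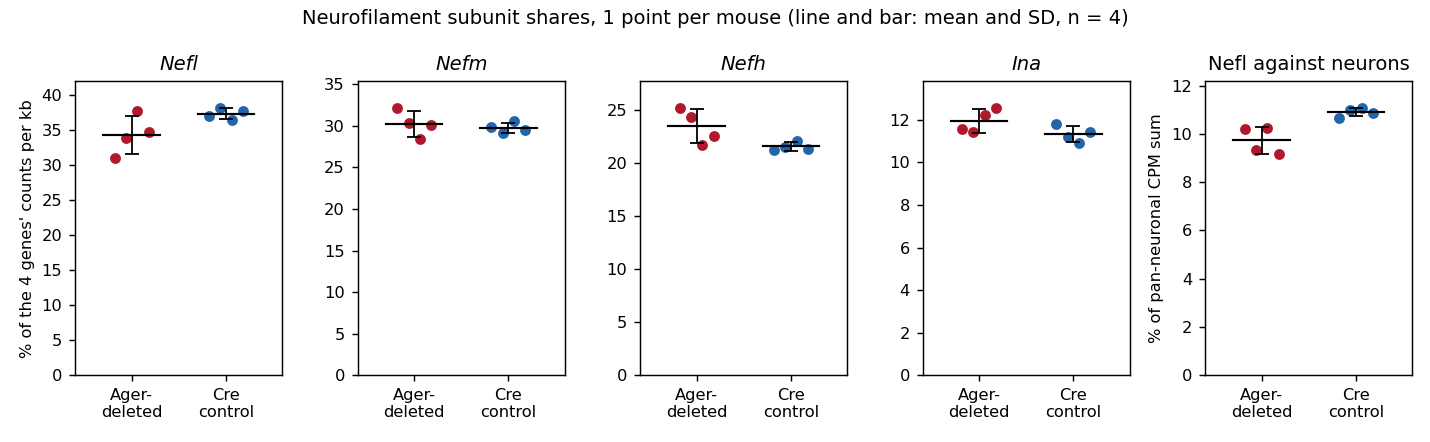
Share of each subunit in the length-corrected counts of *Nefl*, *Nefm*, *Nefh* and *Ina* (first 4 panels, %) and *Nefl* as a percentage of the summed CPM of 17 pan-neuronal markers (last panel), 1 point per mouse, with the mean as a line and the SD as a bar (n = 4). The *Nefl* and *Nefh* shares of *Ager*-deleted mouse E5248 (37.7% and 21.7%) lie within the control range, and in the last panel all 4 *Ager*-deleted mice (9.15% to 10.2%) lie under the 4 controls (10.7% to 11.1%).

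The growth-associated gene *Gap43* (chr16:42248442-42340651, minus strand) encodes a membrane protein of growth cones, and its level varied widely among *Ager*-deleted mice and little among controls. It stood at 169, 135, 139 and 119 CPM in E5231, E1776, E5568 and E5248, and at 131, 129.8, 132 and 131 CPM in the controls E6578, E5642, E6732 and E5386. E5231 was the highest and E5248 the lowest of all 8, and without E5248 the ranges did not overlap, as held for 11.1% of all tested genes. The SD was 20.9 CPM among *Ager*-deleted mice and 1.01 CPM among controls, where counting error alone gives an SD of 1.94 CPM, and no test of the difference in spread was run. The genotypes differed by 0.10 ± 0.093 on the log2 scale (SE; 95% interval -0.10 to 0.31), and by 0.0015 without E5231.

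Stathmins bind free tubulin and regulate microtubules in the axon tip, and *Stmn2* (chr3:8509360-8561606, plus strand) is known for its loss in human ALS neurons with TDP-43 pathology. *Stmn2* gave 276, 254, 273 and 272 CPM without *Ager*, and 301, 258, 244 and 234 CPM in the controls. Every *Ager*-deleted mouse lay inside the control range. Its log2 fold change was 0.052 ± 0.083 (SE), the smallest error of the 10 genes. *Stmn4* (chr14:66344296-66361680, plus strand) gave 198, 174, 178 and 145 CPM in the former and 168, 149.8, 179 and 185 CPM in the latter, with the extremes again in E5231 and E5248. It differed by 0.028 ± 0.099 (SE) on the log2 scale. Without the 2 muscle-rich controls the values for *Stmn2* and *Stmn4* were -0.025 and -0.0054, within their errors.

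*Sprr1a* (chr3:92483952-92485895, minus strand) encodes a small proline-rich protein that is nearly absent from intact neurons and is induced after axon injury. It stood at 16.9, 11.1, 7.91 and 4.49 CPM in E5231, E1776, E5568 and E5248, and at 10.9, 13.2, 7.22 and 10.3 CPM in the controls E6578, E5642, E6732 and E5386. E5231 was 3.76-fold above E5248, and both extremes belonged to *Ager*-deleted mice. The counts behind these values were 159 to 626, for which counting error gives a CV of at most 7.93%, while the CV over the 8 mice was 37.2%. Its SD within genotypes on the log2 scale exceeded that of 98.7% of tested genes. The resulting log2 fold change was -0.044 ± 0.34 (SE; 95% interval -0.79 to 0.71), and it turned to 0.15 without the 2 muscle-rich controls and to 0.20 without E5248.

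*Sprr1a* is also a skin gene. Of 11 keratinocyte markers 7 passed the filter on low counts, and *Krt5* and *Dsg1a* had at most 3 counts in every mouse. The 11 summed to 25.9 CPM in E5248 and 32.1 CPM in E5231, the lowest and the highest mouse for *Sprr1a* and for this sum. Of 12 sensory ganglion markers 6 passed the filter on low counts, and *Scn10a*, *Mrgprd* and *Prdm12* had at most 3 counts in every mouse. The 12 summed to 17.8 to 29.2 CPM, with 27.3 CPM in E5231 and 26.3 CPM in E5248. The part of either cell type in the levels of *Sprr1a* was not tested.

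The 250 bases before the *Sprr1a* start in RefSeq (GRCm38.p6, chr3:92485882-92486131, minus strand) are shown. The reason is the correlation given below with *Atf3*, a transcription factor of the bZIP family picked after its values were seen. Capitals mark matches on either strand to TGANTCA, the AP-1 motif of bZIP dimers, and to TATAAA, the TATA box; TGACGTCA, the CRE motif, was searched as well.
Sprr1a: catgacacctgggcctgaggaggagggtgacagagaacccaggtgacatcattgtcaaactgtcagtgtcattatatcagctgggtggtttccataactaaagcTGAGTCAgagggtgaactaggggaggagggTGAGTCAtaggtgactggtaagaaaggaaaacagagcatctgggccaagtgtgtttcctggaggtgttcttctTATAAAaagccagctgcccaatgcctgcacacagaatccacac

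TGANTCA occurred 2 times, 146 and 116 bases before the start, TATAAA 1 time, 43 bases before it, and TGACGTCA not at all. Of all 32851 promoter windows of this length, 6.75% hold TGANTCA, 12.4% hold TATAAA and 1.55% hold TGACGTCA. The windows of *Ina*, *Sox11* and *Ecel1* held none of these letters. The matches are a description of the sequence and say nothing of which factor was bound there.

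*Sox11* (chr12:27334264-27342574, minus strand) encodes a transcription factor of neuronal development that returns after axon injury. Its level was 9.03, 11.5, 9.51 and 9.62 CPM without *Ager*, and 8.42, 11.6, 12.5 and 10.9 CPM in the controls. All *Ager*-deleted mice lay inside the control range, which E6578 and E6732 set at either end. *Sox11* differed by a log2 fold of -0.14 ± 0.13 (SE; 95% interval -0.43 to 0.16).

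*Ecel1* (chr1:87147655-87156521, minus strand), an endopeptidase-like protein of motor neurons also called DINE, gave 99.2, 88.2, 78.7 and 68.7 CPM without *Ager* and 92.5, 83.2, 67.6 and 69.9 CPM in the controls. E5231 was again the highest mouse, and the lowest were control E6732 and *Ager*-deleted E5248. *Ecel1* differed by a log2 fold of 0.10 ± 0.13 (SE; 95% interval -0.19 to 0.38), and by 0.0053 without E5231.

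Per length of transcript, the 10 genes spanned a wide range of levels. In CPM per kilobase of annotated exon, averaged over the 8 mice, *Nefl* was at 188 ± 20.1 (SD, n = 8), *Nefm* at 158 ± 17.3 and *Nefh* at 118 ± 13.9, and this order held between neighbours in 7 and 8 of 8 mice. *Stmn4* (89.8 ± 9.17) and *Gap43* (89.1 ± 9.59) did not differ beyond their spread, with *Stmn4* higher in 5 of 8 mice. *Ina* (61.1 ± 6.02), *Stmn2* (47.1 ± 3.77), *Ecel1* (23.1 ± 3.38), *Sprr1a* (12.7 ± 4.73) and *Sox11* (1.25 ± 0.175) followed, each above the next in 8 of 8 mice. The length of the longest coding transcript in place of all exons moved *Nefm* to 248 ± 27.1, above *Nefl* in 8 of 8 mice, and *Stmn2* to 127 ± 10.2, level with *Stmn4* at 126 ± 12.9 and higher than it in 4 of 8 mice. Both then ranked above *Nefh*, though *Stmn4* was above it in only 5 of 8 mice. The order of *Nefm* against *Nefl* and the ranks of *Stmn2*, *Stmn4* and *Nefh* therefore depended on which transcripts were counted as present, whereas the order of *Ina*, *Ecel1*, *Sprr1a* and *Sox11* did not.

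For *Gap43*, *Stmn4*, *Sprr1a* and *Ina*, 2 mice of the same genotype stood at opposite ends. *Ager*-deleted mouse E5231 was the highest of 8 for *Gap43*, *Stmn4*, *Sprr1a* and *Ecel1* and the lowest for *Nefl*, *Nefm* and *Ina*. *Ager*-deleted mouse E5248 was the lowest for *Gap43*, *Stmn4* and *Sprr1a* and the highest for *Ina*. These 2 mice also differed in other respects. Pan-neuronal markers summed to 5507 CPM in E5231, the lowest of the 8 mice, and to 6954 CPM in E5248, the highest. Microglial markers summed to 2553 CPM in E5231, the highest, and to 1761 CPM in E5248, the lowest, and astrocyte markers to 17874 and 13576 CPM. An index of transcript length, the mean deviation of the longest 25% of tested genes from their 8-mouse means less that of the shortest 25%, was -0.097 in E5231 and 0.085 in E5248, again the lowest and the highest, with all other mice between. Over the 8 mice the index had r = -0.83 and rho = -0.55 with *Gap43* (exact permutation p = 0.0061 and 0.171), and r between -0.70 (*Sprr1a*) and 0.70 (*Nefl*) with the other 9 genes. None of the 10 had an adjusted p under 0.05 over this family (exact permutation, 0.0613 for *Gap43*). For *Gap43*, *Nefl*, *Sprr1a*, *Ina*, *Stmn4* and *Ecel1* these values rest largely on E5231 and E5248. Without the 2 mice farthest from the median of the index, r was -0.33, 0.11, 0.036, -0.015, 0.14 and -0.060 for these genes in turn. For *Nefm*, *Nefh*, *Stmn2* and *Sox11* r was 0.36, 0.33, -0.35 and 0.52 there, against 0.51, 0.39, -0.24 and 0.39 with all mice. The part of cell content in the levels of the 10 genes was not tested.

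Over the 8 mice, 55 correlations were computed on log2(CPM + 1), 45 between the 10 genes and 10 of each with *Chat*, the acetylcholine-synthesizing enzyme of motor neurons. By exact permutation over all pairings, 10 of 55 had an unadjusted p under 0.05 for Pearson's r, and 0 had an adjusted p under 0.05 for either r or Spearman's rho. The highest was *Nefm* with *Nefh* (r = 0.93, rho = 0.93, exact permutation p = 0.0011 and 0.0022, adjusted p = 0.0614 and 0.123). This r was 0.72 without the 2 mice farthest from the median of *Nefm*, and 0.98 after the mean of each genotype was taken off. *Nefm* also went with *Ina* (r = 0.80, rho = 0.86, exact permutation p = 0.0152 and 0.0107, adjusted p = 0.168 and 0.196; r = 0.97 without the 2 farthest mice). *Nefl* was less tied to the tailed subunits, with r = 0.53 to *Nefm* and 0.28 to *Nefh*.

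*Gap43* went against *Nefl* (r = -0.87, rho = -0.74, exact permutation p = 0.0083 and 0.0458, adjusted p = 0.151 and 0.36), and r was -0.88 without the 2 mice farthest from the median of *Nefl*. That leave-out kept E5248, the lowest mouse for *Gap43*, and r without both E5231 and E5248 was not computed for this pair. *Gap43* and *Stmn4* went together (r = 0.78, rho = 0.79, exact permutation p = 0.011 and 0.0279, adjusted p = 0.151 and 0.256), a relation that rests largely on E5231 and E5248, since r was 0.41 without them. *Stmn2* went against *Sox11* (r = -0.86, rho = -0.83, exact permutation p = 0.0059 and 0.0154, adjusted p = 0.151 and 0.211; r = -0.98 without the 2 farthest mice). *Sprr1a* and *Ecel1* went together (r = 0.78, rho = 0.86, exact permutation p = 0.0185 and 0.0107, adjusted p = 0.17 and 0.196; r = 0.61 without the 2 farthest mice). With the length index regressed out, r was -0.73 for *Nefl* with *Gap43*, 0.63 for *Gap43* with *Stmn4* and 0.65 for *Sprr1a* with *Ecel1*, while *Nefm* with *Nefh* (0.92) and *Stmn2* with *Sox11* (-0.85) stayed near their values. Without the 2 muscle-rich controls, r over the other 6 mice was 0.93 for *Nefm* with *Nefh*, -0.91 for *Nefl* with *Gap43* and 0.91 for *Gap43* with *Stmn4*. *Chat*, at 10.8 to 20.6 CPM, had r of 0.57 with each of *Nefm*, *Nefh* and *Ecel1* and passed no threshold with any of the 10 genes.

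**Figure D4:**
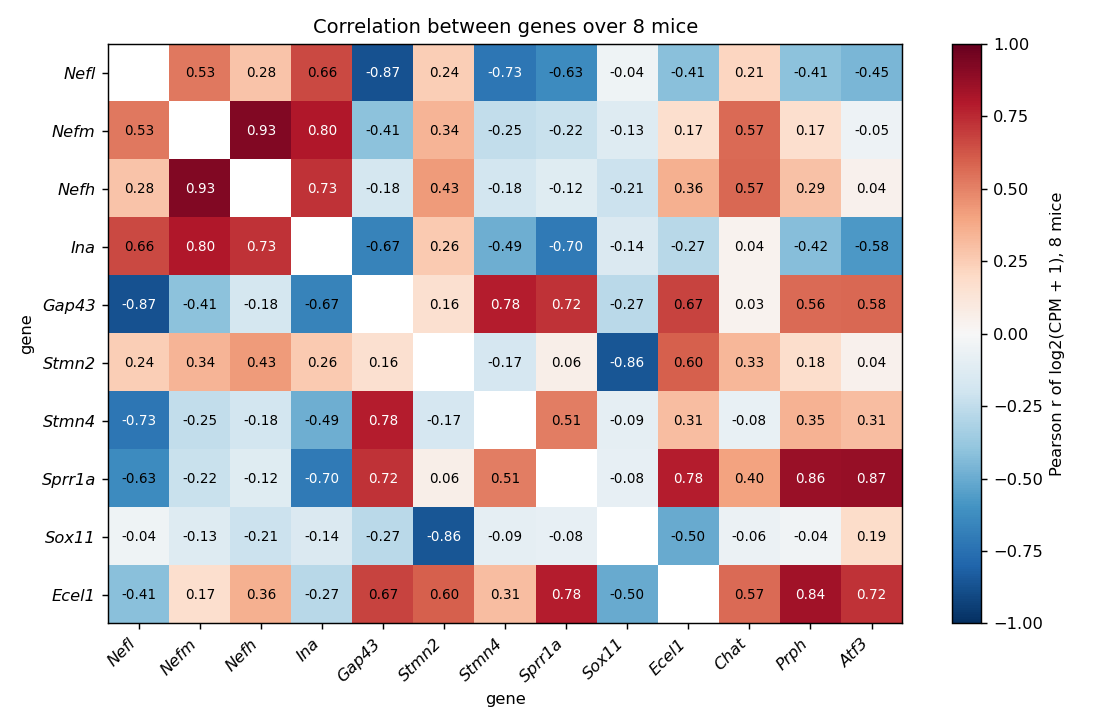
Pearson's r of log2(CPM + 1) over 8 mice between each of the 10 genes (rows) and the 10 genes, *Chat*, *Prph* and *Atf3* (columns), from -1 (blue) to 1 (red), with the diagonal left blank. The neurofilament genes *Nefm*, *Nefh* and *Ina* are positive with each other (0.73 to 0.93), *Gap43* is negative with all 4 neurofilament genes, and *Sprr1a* and *Ecel1* are positive with *Prph* and *Atf3* (0.72 to 0.87).

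*Atf3*, the transcription factor that marks injured neurons, and *Prph*, the intermediate filament peripherin of motor and sensory neurons, were set beside the 10 genes after their values had been seen. *Atf3* stood at 41.5, 39.3, 29.9 and 24.2 CPM in E5231, E1776, E5568 and E5248 and at 35.6, 42.3, 34.4 and 29.97 CPM in the controls E6578, E5642, E6732 and E5386. *Prph* gave 51.3, 51.1, 30.9 and 28.3 CPM in the former and 46.3, 44.4, 35.8 and 35.3 CPM in the latter. Neither passed the test between genotypes, with log2 fold changes of -0.077 ± 0.16 (SE; 95% interval -0.44 to 0.29) and -0.0023 ± 0.20 (SE; 95% interval -0.44 to 0.44). E5248 was the lowest mouse for both of them, as it was for *Sprr1a*.

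Across the 8 mice *Sprr1a* had r = 0.87 and rho = 0.90 with *Atf3* (exact permutation p = 0.0047 and 0.0046) and r = 0.86 and rho = 0.86 with *Prph* (exact permutation p = 0.0036 and 0.0107). Adjusted over the 20 pairs of this family, both Pearson values had p = 0.0471 by exact permutation and the Spearman values 0.0913 and 0.107. Because *Atf3* and *Prph* were picked after their values were seen, these p-values describe the pairs and decide nothing. Without the 2 mice farthest from the median of the other gene, r was 0.70 and 0.72. *Ecel1* had r = 0.84 with *Prph* and 0.72 with *Atf3* (exact permutation adjusted p = 0.115 and 0.238). *Sox11* and *Stmn2* had r between -0.035 and 0.19 with both genes. With the genotype means taken off, r between *Sprr1a* and *Atf3* was again 0.87, and it was 0.87 with the length index regressed out.

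**Figure D5:**
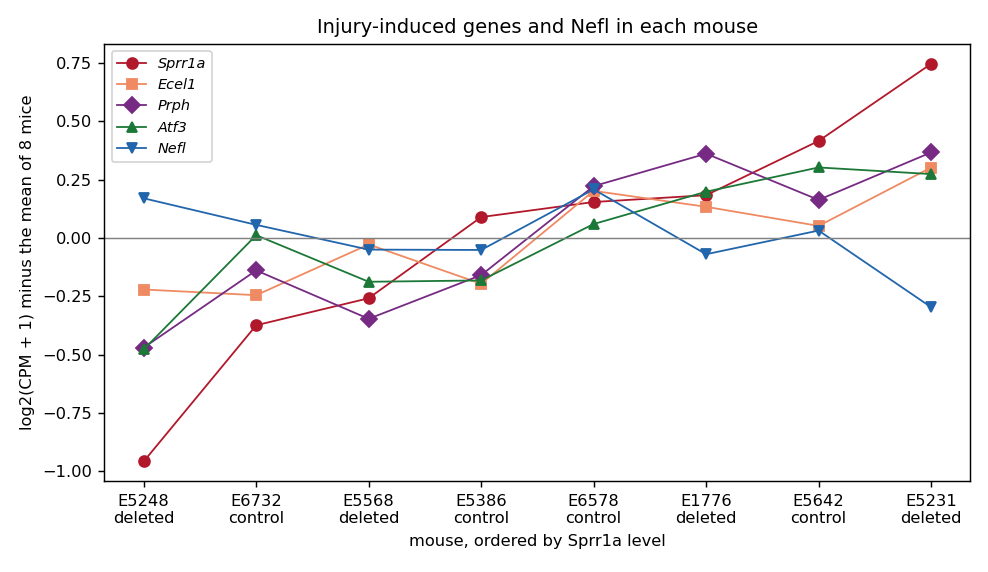
Deviation of log2(CPM + 1) from the mean of 8 mice (y axis) for *Sprr1a*, *Ecel1*, *Prph*, *Atf3* and *Nefl*, with the mice ordered by *Sprr1a* (x axis, genotype under each name). *Ager*-deleted mice E5248 and E5231 are at the 2 ends, *Ecel1*, *Prph* and *Atf3* are above their means in E6578, E1776, E5642 and E5231, the 4 mice on the right, and *Nefl* is lowest in E5231. *Atf3* is also slightly above its mean in E6732, on the left.

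The genes most like 3 of the members were taken from the 16081 genes with a mean of at least 1 CPM by Pearson's r over the 8 mice, as a description without a test, since the highest of so many values is high in any case. Those nearest to *Nefh* were *Pip5k1c* (r = 0.97), *Slc35b4* (0.95), *Ulk1* (0.95), *Galnt9* (0.94) and *Kcnk12* (0.94). Those nearest to *Sprr1a* were *Prnp* (0.997), *Zfp688* (0.99), *Pla2g2f* (0.98), *Tspan3* (0.98) and *Prr13* (0.98), of which *Prnp* ran only from 823 to 1078 CPM while *Sprr1a* changed 3.76-fold. Those nearest to *Ecel1* were *Rnf113a2* (0.97), *Sap30bp* (0.96), *Saraf* (0.96), *Ly6a* (0.95) and *Smim1* (0.95).

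Genes of related processes were counted in the same test, and the quasi-likelihood test called 0 genes in each of the 5 lists that follow. Of 20 axonal cytoskeleton genes, 0 were called in edgeR's exact test and 0 had an unadjusted p under 0.05, with a median log2 fold change of 0.06. The median was 0.0028 without the 2 muscle-rich controls, where 1 gene, *Nes*, had an unadjusted p under 0.05 (log2 fold change -0.33, p = 0.0095 in the exact test). With all mice, the 2 with the smallest p were the intermediate filament *Nes*, with 74.0 ± 7.29 CPM (SD, n = 4) without *Ager* and 84.5 ± 11.6 CPM in controls, and the axon initial segment spectrin *Sptbn4*, at 140.1 ± 15.6 and 125 ± 10.97 CPM. Both overlapped between the genotypes. The list was written by hand, and whether its transcripts, those of *Nes* included, came from neurons or other cells of the cord was not tested.

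Of 35 regeneration-associated genes tested out of 36, 0 were called and 2 had an unadjusted p under 0.05, both lower in *Ager*-deleted mice. A log2 fold change below 0 was found for 28, with a median of -0.08 beside 0.0069 over all tested genes. With those 2 muscle-rich controls left out, 1 was called and 2 had an unadjusted p under 0.05, both lower. In that fit 24 were below 0 (median -0.055), as were 9769 of all 20141 tested genes (median 0.0053). With all mice, the smallest p of the list was that of *Klf6*, a transcription factor of axon growth, at 57.0 ± 2.47 CPM (SD, n = 4) against 68.6 ± 8.68 CPM (log2 fold change -0.27 ± 0.089 (SE), adjusted p = 0.843 in the exact test). *Klf6* was lower in each *Ager*-deleted mouse than in 3 of the 4 controls, with control E5386 (56.6 CPM) among them. For comparison with all mice, 10 of 14 microglial, 6 of 9 astrocyte and 3 of 9 oligodendrocyte markers were below 0 (medians -0.087, -0.049 and 0.0062). Which cells the transcripts of the regeneration-associated list came from was not tested.

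Of 24 genes of axon degeneration and of the DLK kinase pathway, which relays axon injury to the nucleus, 0 were called and 1 had an unadjusted p under 0.05. This was *Sarm1*, the NADase that executes axon degeneration, at 23.5 ± 2.66 CPM (SD, n = 4) against 19.9 ± 0.759 CPM (log2 fold change 0.24 ± 0.087 (SE), adjusted p = 1 in the exact test). It was at 25.8, 25.4 and 22.9 CPM in E1776, E5248 and E5568, above every control (19.0 to 20.9 CPM), and at 20.03 CPM in E5231. In the fit without the 2 muscle-rich controls, 0 of the 24 had an unadjusted p under 0.05, and *Sarm1* was at 0.23 (p = 0.123 in the exact test). The next was the apoptosis effector *Bax*, at 29.4 ± 4.31 against 26.0 ± 1.23 CPM. Its ranges overlapped.

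Of 17 stathmin and growth cone genes, 0 were called and 2 had an unadjusted p under 0.05, both higher in *Ager*-deleted mice. They were the Nogo receptor *Rtn4r*, at 6.11 ± 0.659 CPM (SD, n = 4) against 4.76 ± 0.539 CPM with separate ranges (5.41 to 6.90 against 4.17 to 5.36 CPM), and the actin bundler fascin, *Fscn1*, at 138 ± 12.2 against 118 ± 13.7 CPM. In the 6 mice without the muscle-rich controls, 0 of the 17 had an unadjusted p under 0.05 (*Rtn4r* 0.136 and *Fscn1* 0.128 in the exact test). Their log2 fold changes stayed about as large, at 0.31 against 0.36 with all mice (*Rtn4r*) and 0.21 against 0.23 (*Fscn1*). Both are named because they made up the count with all mice, after their values were seen.

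Of 16 motor neuron markers, 0 were called and 0 had an unadjusted p under 0.05. A log2 fold change below 0 was found for 14 (median -0.08, beside 0.0069 over all tested genes). Leaving out the 2 muscle-rich controls, 0 were called and 2 had an unadjusted p under 0.05, both lower in *Ager*-deleted mice (*Slc5a7*, and *Calca*, named after its values were seen, at -0.31). In that fit 15 were below 0 (median -0.19), beside 9769 of all 20141 tested genes. *Chat* averaged 14.7 ± 3.46 CPM (SD, n = 4) without *Ager* and 16.1 ± 3.29 CPM in controls. The choline transporter *Slc5a7* was at 39.0 ± 8.61 against 49.9 ± 12.0 CPM (log2 fold change -0.36 ± 0.19 (SE), adjusted p = 1 in the exact test), and the fold change was -0.57 without the 2 muscle-rich controls (unadjusted p = 0.0032 in the exact test). The protease *Mmp9*, a marker of fast motor neurons, was at 8.39 ± 2.86 against 10.7 ± 2.87 CPM (log2 fold change -0.35 ± 0.25 (SE)), and its fold change turned to 0.012 without those 2 controls. Schwann cell markers moved the same way in the fit without them, 9 of 10 with a log2 fold change below 0 (median -0.52, against -0.25 with all mice), 4 with an unadjusted p under 0.05 and 1, the myelin protein *Pmp2*, called at -1.45. They summed to 498 to 1077 CPM in the *Ager*-deleted mice and to 907 and 1072 CPM in the remaining controls E6732 and E6578, and their part in the motor neuron values was not tested. The summed motor neuron markers ranged from 291 to 371 CPM in the *Ager*-deleted mice and from 291 to 404 CPM in the controls.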

How the data were processed

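The data are bulk RNA-seq of lumbar spinal cord from 8 mice, grouped by the genotype in the labels; the mice are separate animals and no batch is named. Per the labels and the methods of the study, the authors trimmed reads with Trimmomatic 0.36, aligned them to mm10 with STAR 2.7.3a, counted them per gene of GENCODE with featureCounts of Subread 1.6.3, and deposited raw counts and, for 19470 genes, log2 TMM-normalized CPM made with edgeR, given as 3.26.8 in the labels and as another version in the methods of the study. The deposited log2 values served only as a check: recomputed from the counts they differed by at most 4.78e-06.

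Counts were filtered with filterByExpr (minimum 10), normalized by TMM and tested with edgeR 4.0.16 (exactTest, dispersions from estimateDisp) in R 4.3.3, with Benjamini-Hochberg adjustment over all 19470 genes and a threshold of 0.05. Standard errors and 95% intervals are from glmQLFit and glmQLFTest. Single values were compared by exact two-sided permutation on log2(CPM + 1) or on shares. Exons and positions are from GENCODE M21 on GRCm38, an earlier release than the authors' M25, matched by symbol; 19078 of the tested genes (98.0%) had a length. Promoters are from RefSeq, where 4 of the 10 genes matched.

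The members, the other lists and the rule for named genes were chosen with earlier results of these data known, and the lists were written by hand. Named genes are all members, *Chat*, *Prph*, *Atf3*, *Ager*, list genes past the adjusted threshold, the 2 smallest p of the lists of axonal cytoskeleton, regeneration, axon degeneration and motor neurons, and the 5 genes most like *Nefh*, *Sprr1a* and *Ecel1*. *Rtn4r*, *Fscn1*, *Calca*, *Nt5c2* and the single keratinocyte and sensory ganglion markers were named after their values were seen. A gene that this rule names is not reported here. The scripts were tested on simulated data. Alternatives were DESeq2 1.42.0, limma-voom (limma 3.58.1), other normalizations, filters, dispersions and pseudocounts, removal of muscle genes or of the muscle-rich mice, a muscle score as covariate, and each mouse left out. The longest coding transcript, the length index, levels relative to pan-neuronal markers, the correlations with *Prph* and *Atf3*, and the shares, ratios, lists and correlations without the muscle-rich mice, and the correlations with the length index were added after the data were seen. Counting errors cover counting only.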

Additional observations from a re-analysis of the deposited data

Results flagged for a closer look

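Each genotype's 4 mice were checked for a single mouse far from the other 3, for the 10 genes and the 4 neurofilament shares, 28 groups in all, of which chance alone would mark about 1 in 20. The check marked 1 group. *Stmn2* was at 254 CPM in *Ager*-deleted mouse E1776, while the other 3 *Ager*-deleted mice lay between 272 and 276 CPM, so that the gap was 0.831 of the range of the group. All 4 values lie inside the range of the controls.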

How the results depend on the processing

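Under all 20 alternative fits, leave-outs included, 0 of 10 genes had an adjusted or unadjusted p under 0.05, and the sign of the log2 fold change of *Nefl*, *Nefh*, *Ina*, *Gap43*, *Sox11* and *Ecel1* did not change. Their size did. With 1 mouse left out *Nefl* ranged from -0.20 to -0.043 (without E5231), *Nefh* from 0.038 (without E1776) to 0.20, *Ina* from 0.040 (without E5248) to 0.17, *Gap43* from 0.0015 (without E5231) to 0.17, *Sox11* from -0.24 (without E6578) to -0.057 (without E6732) and *Ecel1* from 0.0053 (without E5231) to 0.19. With the muscle covariate *Nefh* was at 0.013 and *Ina* at 0.015. For the others, signs turned within their errors and the cause was not tested. With the muscle covariate and without E5386 and E5642, *Nefm* was at -0.086 and -0.074, *Stmn2* at -0.021 and -0.025, *Stmn4* at -0.0081 and -0.0054, and *Sprr1a* at 0.13 and 0.15. With 1 mouse left out, *Nefm* ranged from -0.053 (without E1776) to 0.11 and was also below 0 without E5386 or E5642, *Stmn2* from -0.0010 (without E5386) to 0.13, *Stmn4* from -0.041 (without E5231, and below 0 without E5642) to 0.11, and *Sprr1a* from -0.41 to 0.20 (without E5248, and above 0 without E5568 or E5642). Relative to the pan-neuronal sum *Nefm* and *Stmn4* were at -0.019 and -0.019, and relative to the mean log2 level *Nefm*, *Stmn2* and *Stmn4* at -0.050, -0.015 and -0.050. The *Nefm* share difference ranged from -0.149 points (without E1776) to 1.12 points. Members with separate genotypes numbered 0 to 1 when each mouse was left out, where 5.06% to 11.1% of all tested genes were separate. Over all genes, 14 calls became 1 with the quasi-likelihood test, 78 with common and tagwise dispersions, 25 with DESeq2 and 1 with limma-voom. The 14 calls became 8 with a filter at 1 CPM in 4 mice and 9 without muscle genes. Without E5386 and E5642 they numbered 67, and with 1 mouse left out 3 to 98. The muscle covariate was run only in the quasi-likelihood test, where the count was 1 with it and 1 without it. Correlations past the adjusted threshold went from 0 of 55 to 2 with genotype means taken off (*Nefm* with *Nefh*, *Nefl* with *Ina*), where the p-values are too small because centred values are not freely exchangeable, and to 1 with library size only. No paired analysis was possible because the mice share no replicate number. Every member had at least 159 counts in every mouse.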
